A study of Mus musculus with 17 samples.

Results

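The comparison described here asks what retinoic acid (RA), a hormone made from vitamin A, changed in the transcripts of T cells that had turned on Foxp3 in culture with spleen dendritic cells. It sets the 2 arrays titled SpRAFoxp3+ (cultures with 100 nM RA) against the 2 arrays titled SpFoxp3+ (cultures without RA), which are 4 of the 17 Affymetrix M430v2 arrays of the series. Members were taken by title, and arrays with the same number (no1 or no2) were treated as a pair. Both groups came from spleen CD4+Foxp3- T cells of male C57BL/6-Foxp3/GFP reporter mice, aged 6 to 10 weeks, with 3 mice pooled for each array. The T cells were mixed with spleen dendritic cells (DC) at 10 to 1. All cultures held anti-CD3 at 1 ug/ml, transforming growth factor beta (TGFbeta) at 0.6 ng/ml and, added on days 2 and 4, IL-2 at 5 ng/ml. After 5 days the CD4+ cells positive for the Foxp3/GFP reporter were sorted. The sorted cells therefore had been Foxp3- at the start, and TGFbeta was present in the control as well as the RA culture. Other arrays used for comparison hold Foxp3- cells of the same kinds of culture (SpRAFoxp3-, 1 array, and SpFoxp3-, 2 arrays), Foxp3+ cells of cultures with lamina propria DC without RA (LPFoxp3+, 2 arrays), and CD44hi memory CD4 cells of C57BL/6 mice (3 arrays each with and without RA). The memory cells were cultured for 48 hours with naive cells, at 2 memory cells to 1 naive cell. They were given 100 nM RA (MemoryRA) or none (Memory). Those cultures held TGFbeta at 10 ng/ml and IL-2 at 20 U/ml. Each memory array also came from 3 mice aged 6 to 10 weeks. The labels do not say that the replicates of a group came from separate cultures, so p-values measure the spread between these arrays.

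Retinoic acid is made from retinol by way of retinal and enters the nucleus, where receptors of the RAR family, paired with RXR, bind DNA at repeats of a short motif and switch between a repressing and an activating state when the ligand arrives. Dendritic cells of the gut can make RA, and T cells activated in its presence acquire the receptors that carry them to the small intestine, such as Ccr9 and the integrin of Itga4 and Itgb7. Together with TGFbeta it favours expression of Foxp3, which directs the regulatory T cell programme, and it limits several inflammatory helper programmes.

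The values are log2 of the deposited RMA intensity, and the array median of the 4 arrays was 59.5 to 61.5 on the linear scale. Pearson correlations between the 4 arrays over all probe sets were 0.9754 to 0.9905. The 2 highest, 0.9905 for no1 and 0.9891 for no2, were between arrays of the same number and different treatment. All 12 markers of T cells lay above the array median on all 4 arrays. The Foxp3 probe set did not mark the sort. It read 4.28 and 4.09 on the SpRAFoxp3+ arrays, against 4.53 and 4.48 on the SpFoxp3+ arrays, while the memory cells gave 7.08 to 9.14, so Foxp3 itself was not tested here. Of 15 dendritic cell markers, 8 did not exceed the array median on any of the 4 arrays, among them Itgax, Xcr1 and H2-Aa. The other 7 lay above it on all 4, led by H2-Ab1 (9.89 and 10.78 in SpRAFoxp3+ cells, against 10.09 and 10.76 in SpFoxp3+ cells) and Cst3 (8.31 and 8.88, against 8.5 and 8.78). The summed level of the whole list was 2082 and 3000 in SpRAFoxp3+ cells, against 2188 and 2973 in SpFoxp3+ cells. In such sorted bulk samples fewer cells of a type and less RNA per cell cannot be told apart.

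RA changed 133 of 11846 genes tested (1.12%), of which 73 were higher (0.616%) and 60 lower (0.507%) in SpRAFoxp3+ cells. A gene is said here to rise, fall or change when it passed an adjusted p of 0.05 in limma with the array number as a block. The largest rises were of Ccr9, Bex1 and Gda, and the largest falls of Ifitm1, Ifitm3 and Endou. Of the 133 genes, 92 differed at least 2-fold, 50 upward and 42 downward, and the median difference over all genes tested was -0.00217. In 129 of the 133 the 2 groups did not overlap, while over all genes tested the groups lay apart with RA higher in 12.9% and with RA lower in 12.2%. Both same-numbered pairs moved the same way in all 133, against 52.9% of all genes tested. The 133 were chosen by their p-value on these same arrays. Groups that lie apart and pairs that agree follow largely from that choice and add no separate evidence. Without the block 12 genes passed (0.101%), 11 upward (0.0929%) and 1 downward (0.00844%), and all of them are among the 133. These are Asb2, Bex1, Ccr9, Cracdl, Csn2, Cyp26b1, Dhrs3, Gda, Grtp1, Lztfl1 and Mmd, which rose, and Ifitm1, which fell. The number of genes with an unadjusted p under 0.05 was 1454 with the block and 570 without it. The count of changed genes fell to 61 without SpRAFoxp3+ no1, to 48 without SpRAFoxp3+ no2 and to 51 without SpFoxp3+ no2, and was 129 without SpFoxp3+ no1. In each of these settings all 133 genes kept their direction. That too adds no separate evidence, since both pairs already moved the same way in all 133. Of the 41 changed genes taken by the naming rule, 10 passed in all 22 alternatives run for them. They are the 12 just listed without Grtp1 and Mmd, which were not among the 41. The 22 alternatives are not all distinct. Leaving out the single SpRAFoxp3- array repeats the main fit. Leaving out no1 or no2 of LPFoxp3-, LPFoxp3+ or SpFoxp3- gives the same result either way.

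**Figure D1:**
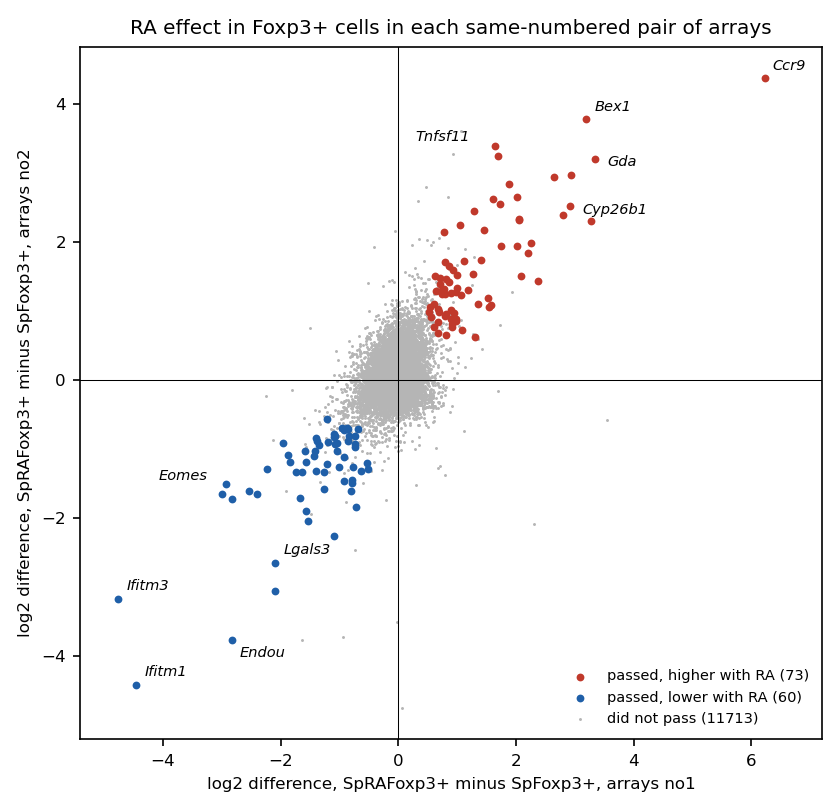
Log2 difference between SpRAFoxp3+ and SpFoxp3+ on the arrays no1 (horizontal axis) and no2 (vertical axis), with 1 point per gene tested. The 73 genes that passed upward (red) lie in the upper right and the 60 that passed downward (blue) in the lower left, with Ccr9 at one end and Ifitm1 and Ifitm3 at the other.

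Of the enzymes that handle retinoids, Cyp26b1 and Dhrs3 rose. Cyp26b1, a cytochrome P450 that breaks RA down, read 9.31 and 9.02 in SpRAFoxp3+ cells, against 6.4 and 6.5 in SpFoxp3+ cells. Both arrays with RA lay well above both without it, a difference of 2.72 ± 0.14 (log2, standard error of the fit) or 6.57-fold (adjusted p = 1.65e-05). Dhrs3, which returns retinal to retinol and so lowers the supply of RA, read 8.84 and 9.33 with RA, against 6.96 and 6.49 without it. Its groups did not overlap either, and it rose by 2.36 ± 0.21 or 5.14-fold (adjusted p = 0.000832). Both genes also passed without the block and with any of the 4 arrays left out. Of the 9 enzymes and binding proteins tested these were the 2 that passed, where 1.12% of all genes tested passed. Rdh10, which makes retinal from retinol, differed by 0.41 ± 0.22 and did not pass, and the median of the list was 0.058. Cyp26a1, the related RA-degrading enzyme, and Crabp2, an RA-binding protein, lay below the filter on low values.

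None of 10 RA receptors and co-regulators passed (limma; median 0.020, against -0.002 over all genes tested). Rarb, a receptor whose own promoter holds a classical RA response element, read 7.04 and 5.78 in SpRAFoxp3+ cells, against 6.46 and 6.04 in SpFoxp3+ cells. These values overlapped, with a difference of 0.16 ± 0.20. Rarg differed by -0.18 ± 0.13, Rxra by -0.11 ± 0.12 and Nrip1, a co-repressor of nuclear receptors, by 0.78 ± 0.22, and Rara was below the filter. The element in the Rarb promoter is shown because it is the textbook form of the site to which RAR and RXR bind. The 250 bases before the RefSeq start site, at chr14:16575477-16575726 (GRCm38.p6, minus strand), carry a direct repeat of 2 such motifs spaced by 5 bases, given in capitals.
Rarb: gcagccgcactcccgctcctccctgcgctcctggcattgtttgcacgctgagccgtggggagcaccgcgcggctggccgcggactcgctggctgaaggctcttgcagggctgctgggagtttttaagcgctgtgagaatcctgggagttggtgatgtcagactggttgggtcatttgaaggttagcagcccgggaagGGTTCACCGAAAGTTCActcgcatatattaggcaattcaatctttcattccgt
A repeat of this kind (each motif being A or G, then G, then G or T, then TCA, on either strand, spaced by 5, with 250 bases before and 50 after the start searched) was found in 4 of the 9594 tested genes that have a promoter in the table (0.0417%) and in 0 of the 61 such genes that rose. Repeats spaced by 2 were found in 0 of the 61, against 11 of 9594 (0.115%), and repeats spaced by 1 in 0 of the 61, against 24 of 9594 (0.25%). A single motif, which every such repeat contains, was present in 25 of the 61 (41.0%), against 42.1% of all.

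Among genes known as RA targets in other cells, Lztfl1, Asb2, Fam102b and Hic1 rose, 4 of 10 tested. The list median was 0.494, against -0.002 over all genes tested, of which 0.616% rose. Lztfl1, which encodes a protein of ciliary transport, read 10.13 and 9.95 in SpRAFoxp3+ cells, against 7.48 and 7.01 in SpFoxp3+ cells. The gap between the groups was several times the spread within them (2.79 ± 0.13, 6.92-fold, adjusted p = 1.65e-05), and its other 3 probe sets above background moved the same way. Asb2, a subunit of a ubiquitin ligase, read 8.29 and 8.43 with RA, against 6.08 and 6.58 without it (2.03 ± 0.14, adjusted p = 0.000118). Fam102b rose by 1.02 ± 0.15 and the transcriptional repressor Hic1 by 0.92 ± 0.17. Without the block or without SpFoxp3+ no2 or SpRAFoxp3+ no2, neither Fam102b nor Hic1 passed (adjusted p = 0.0591 to 0.898), and Hic1 passed with none of the 4 arrays left out. Gfi1, a transcriptional repressor, differed by 0.91 ± 0.22 and did not pass (adjusted p = 0.096).

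Gut-homing genes gave the largest rise of all. Ccr9 (chromosome 9), the receptor for a chemokine of the small intestine, read 10.39 and 8.27 in SpRAFoxp3+ cells, against 4.16 and 3.91 in SpFoxp3+ cells. Without RA both values lay over 1 unit below the median of their array, so the difference of 5.29 ± 0.40, or 39.2-fold, rests on values at background (adjusted p = 0.000215). The arrays with RA differed from each other by over 2 units, yet both stood far above the others, and 2 more Ccr9 probe sets moved by 2.12 and 5.71. Among the co-cultures only arrays with RA exceeded their median for Ccr9, so it passed the filter on low values through them. Itga4, the integrin subunit alpha 4, read 10.90 and 11.06 with RA, against 9.29 and 8.44 without it (2.11 ± 0.26, 4.33-fold, adjusted p = 0.00513). Its partner Itgb7 read 10.16 and 10.51 with RA, against 10.47 and 10.28 without it. Those values overlapped (-0.04 ± 0.18). P2rx7, a receptor for extracellular ATP, rose by 2.46 ± 0.39 to 10.32 and 10.16, against 8.63 and 6.92 in SpFoxp3+ cells. Its 2 other probe sets moved by 0.11 and 3.07, so one of them hardly differed. In all, 3 of the 30 genes tested of the homing and adhesion list, which includes P2rx7, rose and 0 fell. Over all genes tested 0.616% rose, and the list median was -0.048. Itgae, the integrin subunit of CD103, read 10.93 and 10.16 with RA, against 10.46 and 7.37 without it, and its difference of 1.63 ± 0.58 did not pass. Gpr15, a receptor for homing to the colon, read 5.63 and 4.38 with RA, against 7.39 and 6.89 without it. Its groups lay apart but it did not pass (-2.13 ± 0.55, adjusted p = 0.123). Without the block Ccr9 passed while Itga4 and P2rx7 did not (adjusted p = 0.0814 and 0.493). P2rx7 also failed without SpFoxp3+ no2 or either SpRAFoxp3+ array (adjusted p = 0.0546 to 0.164), and Itga4 without SpRAFoxp3+ no2 (adjusted p = 0.0863).

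**Figure D2:**
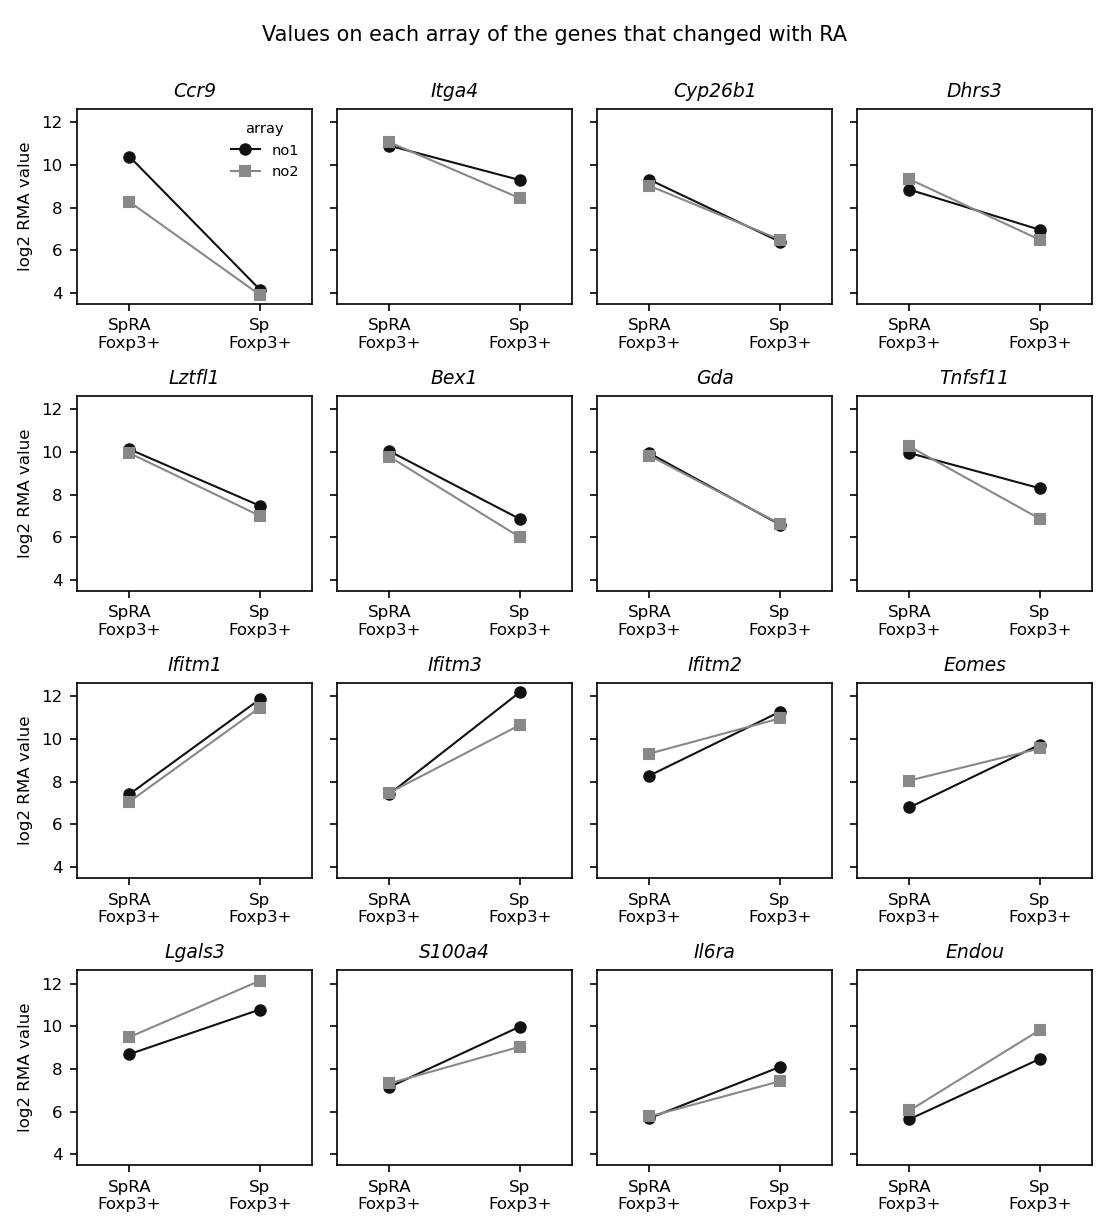
Log2 RMA value of 16 genes that changed, in SpRAFoxp3+ cells (left) and SpFoxp3+ cells (right). Each line joins the arrays of 1 number, circles for no1 and squares for no2, and in all 16 panels both lines run the same way and the groups do not overlap.

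Several of the largest rises were of genes better known from other tissues. Gda, the guanine deaminase of purine breakdown, read 9.94 and 9.83 in SpRAFoxp3+ cells, against 6.60 and 6.64 in SpFoxp3+ cells (3.27 ± 0.15, 9.64-fold, adjusted p = 1.65e-05). The replicates of each group differed by far less than the gap between groups. Bex1, an adaptor-like gene of the X chromosome known from neurons, read 10.04 and 9.78 with RA, against 6.86 and 6.01 without it (3.48 ± 0.25, adjusted p = 0.000149). Csn2, which encodes the milk protein beta casein, read 7.74 and 7.62 with RA, against 4.95 and 5.23 without it (2.59 ± 0.17, adjusted p = 6.91e-05). Cracdl rose by 2.95 ± 0.15 and Cttn, the actin regulator cortactin, by 2.79 ± 0.27, with 1.0 on the other Cttn probe set. Values without RA lay below the array median for Csn2, Cracdl and Cttn. Among the co-cultures only the SpRAFoxp3+ arrays exceeded their median for Csn2, so it passed the filter on low values through them alone. All 5 passed with each of the 4 arrays left out, and without the block 4 of the 5 passed, Cttn being the exception (adjusted p = 0.0592).

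Among 26 cytokines and chemokines tested, the TNF family ligands Tnfsf11 and Tnfsf14 and the cytokine subunit Ebi3 rose and 0 fell. The list median was 0.191, and 0.616% of all genes tested rose. Tnfsf11, known as RANKL, the ligand that drives osteoclast formation and M cell development, read 9.95 and 10.26 in SpRAFoxp3+ cells, against 8.30 and 6.87 in SpFoxp3+ cells (2.52 ± 0.35, adjusted p = 0.00932). The SpFoxp3+ arrays differed from each other by over 1 unit, and both lay below both RA arrays. Tnfsf14, known as LIGHT, read 5.98 and 7.10 with RA, against 5.2 and 4.96 without it (1.46 ± 0.29, adjusted p = 0.0493), with both values without RA below the array median. Ebi3, a subunit of IL-27 and IL-35, read 8.15 and 9.04 with RA, against 7.53 and 7.54 without it (1.06 ± 0.19, adjusted p = 0.0315). Cd96, an adhesion receptor of T and NK cells, rose by 0.89 ± 0.14 and was the 1 call among 24 co-stimulatory and inhibitory receptors. Bmpr2, a receptor for bone morphogenetic proteins, rose by 0.75 ± 0.14 and was the 1 call among 27 genes of the TGF-beta pathway, while its other probe set moved by 0.11. None of these 5 passed without the block (adjusted p = 0.179 to 0.752). Without SpRAFoxp3+ no2 none passed (adjusted p = 0.104 to 0.206), and the difference of Tnfsf14 was 0.93. Without SpFoxp3+ no2 only Tnfsf11 did, the others having adjusted p = 0.128 to 0.447, and Bmpr2 and Cd96 passed with none of the 4 arrays left out.

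Egr2 and Egr3, zinc finger factors induced by T cell receptor signalling, rose, 2 of 27 early response genes, while 0 fell. The list median was -0.014, and 0.616% of all genes tested rose. Egr2 read 7.44 and 8.0 in SpRAFoxp3+ cells, against 5.4 and 5.66 in SpFoxp3+ cells (2.19 ± 0.26, adjusted p = 0.00441), and its second probe set moved by 2.41. Both Egr2 values without RA lay below the array median. Egr3 read 8.61 and 10.00 with RA, against 6.60 and 7.36 without it (2.33 ± 0.40, adjusted p = 0.0299), and its second probe set moved the other way by -0.21. Fos and Egr1 of the same list differed by 1.52 ± 0.31 and 1.24 ± 0.26 and did not pass (adjusted p = 0.0548 and 0.0638). Neither Egr2 nor Egr3 passed without the block or without either SpRAFoxp3+ array (adjusted p = 0.0546 to 0.83), and Egr3 did not without SpFoxp3+ no2 (adjusted p = 0.219).

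Ifitm1 and Ifitm3, which interferons induce, gave the 2 largest falls. The Ifitm genes encode small membrane proteins that block the entry of viruses, and 3 neighbours of chromosome 7 fell together. Ifitm1 read 7.42 and 7.07 in SpRAFoxp3+ cells, against 11.87 and 11.48 in SpFoxp3+ cells. The groups lay far further apart than the arrays within a group, a difference of -4.43 ± 0.23 or 21.6-fold (adjusted p = 1.65e-05). Ifitm3 read 7.43 and 7.49 with RA, against 12.20 and 10.66 without it (-3.96 ± 0.53, 15.6-fold, adjusted p = 0.00724). Ifitm2 read 8.29 and 9.32 with RA, against 11.28 and 10.97 without it (-2.32 ± 0.31, adjusted p = 0.00724). The interferon-inducible GTPases Gbp2 and Iigp1 fell as well, with differences of -1.13 ± 0.16 and -1.48 ± 0.22, and so did Gm4951, a predicted gene outside the list, with -1.76 ± 0.27. Gbp2 read 7.39 and 8.72 with RA, against 8.77 and 9.60 without it, so its groups barely lay apart although both pairs moved by about 1 unit. Of 28 interferon response genes tested 5 fell and 0 rose, where 0.507% of all genes tested fell. In the list 23 differences were negative, against 5976 of 11846 over all genes tested. The list median was -0.249, against -0.002 over all. The fall did not extend to every member, since Ifih1, a sensor of viral RNA, differed by 0.50 and Ifit2, an antiviral protein, by 0.38, and neither passed. Only Ifitm1 passed without the block (the other 5 had adjusted p = 0.081 to 1). Without SpRAFoxp3+ no1 only Ifitm1 passed (adjusted p = 0.0996 to 0.152 for the others), without SpRAFoxp3+ no2 only Ifitm1 and Ifitm2 did (0.0738 to 0.0991), and Iigp1 did not without SpFoxp3+ no1 (0.0541).

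The motif GAAA, any 2 bases and GAAA again, the core of the elements to which interferon regulatory factors bind, was searched on both strands of the same promoter windows. It occurred in 4 of the 42 genes that fell and have a promoter in the table (9.52%), namely Eomes, Gbp2, Ifitm2 and Ifitm3, in 1 of 61 that rose (1.64%, Dhrs3) and in 358 of 9594 genes tested (3.73%). The RefSeq bases (GRCm38.p6) before the start sites of 3 of them are shown because they hold the match upstream of the start, in capitals, while in Ifitm3 it lies after the start. They are from chr7:140955962-140956211 (minus strand) for Ifitm2, chr3:142620413-142620662 (plus strand) for Gbp2, where the match is on the other strand, and chr9:118477939-118478188 (plus strand) for Eomes.
Ifitm2: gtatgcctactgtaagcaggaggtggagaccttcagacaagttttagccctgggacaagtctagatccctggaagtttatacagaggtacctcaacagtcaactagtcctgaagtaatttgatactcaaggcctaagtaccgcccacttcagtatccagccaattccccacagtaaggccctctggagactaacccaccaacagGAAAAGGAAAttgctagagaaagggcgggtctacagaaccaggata
Gbp2: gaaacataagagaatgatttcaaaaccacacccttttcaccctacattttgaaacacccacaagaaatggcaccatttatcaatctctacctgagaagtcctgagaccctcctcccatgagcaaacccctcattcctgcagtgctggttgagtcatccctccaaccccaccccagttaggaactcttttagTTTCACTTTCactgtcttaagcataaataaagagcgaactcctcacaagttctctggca
Eomes: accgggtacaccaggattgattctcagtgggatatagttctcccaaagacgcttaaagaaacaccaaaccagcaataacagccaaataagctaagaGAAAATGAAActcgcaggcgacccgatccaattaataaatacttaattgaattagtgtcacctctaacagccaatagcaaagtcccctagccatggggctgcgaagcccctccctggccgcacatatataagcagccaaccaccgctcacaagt
A match describes these letters only and was not tested for binding.

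Few genes of other helper programmes passed, and those that did fell, where 0.507% of all genes tested fell. Eomes, a T-box factor of cytotoxic and Th1 cells, read 6.80 and 8.06 in SpRAFoxp3+ cells, against 9.74 and 9.56 in SpFoxp3+ cells (-2.22 ± 0.26, 4.66-fold, adjusted p = 0.00405). Il18r1, a chain of the IL-18 receptor, read 8.24 and 7.80 with RA, against 9.77 and 9.85 without it (-1.79 ± 0.26, adjusted p = 0.0103). These 2 were the calls among 15 genes of the Th1 programme, whose median was -0.233 with 11 negative differences. The Th1 cytokine Ifng read 5.39 and 5.15 with RA, against 6.14 and 7.6 without it, and the Th1 factor Tbx21 read 5.05 and 5.72, against 5.91 and 7.03. Both were lower on both RA arrays, and neither passed (-1.60 ± 0.39, adjusted p = 0.107, and -1.08 ± 0.31, adjusted p = 0.176). Il6ra, the receptor chain for IL-6, a cytokine that turns TGFbeta-treated cells toward Th17, read 5.69 and 5.77 with RA, against 8.09 and 7.42 without it (-2.02 ± 0.25, 4.07-fold, adjusted p = 0.00487). Both Il6ra values with RA lay below the array median, and its other probe set moved by only -0.03. It was the 1 call among 10 Th17 genes, whose median was 0.017, and Il17a differed by -0.02 ± 0.16. Maf, a factor for Il4 and Il10, read 8.86 and 8.2 with RA, against 9.66 and 9.80 without it (-1.20 ± 0.22, adjusted p = 0.0374). It was the 1 call among 14 Th2 genes, whose median was -0.103 with 11 negative differences. Il4 differed by -0.03 ± 0.18, Gata3 by -0.11 ± 0.19 and Il10 by -0.48 ± 0.29. Prdm1, which encodes the effector factor Blimp-1, fell by 1.02 ± 0.18, so that 3 of 41 T cell transcription factors fell (Eomes, Maf, Prdm1) and 0 rose. None of the 6 genes Eomes, Il18r1, Il6ra, Maf, Prdm1 and the NK receptor gene Klrd1 passed without the block (adjusted p = 0.0788 to 0.573). Of these only Eomes passed with each of the 4 arrays left out. Without SpRAFoxp3+ no1 Il18r1 passed as well and the other 4 had adjusted p = 0.0791 to 0.206, without SpRAFoxp3+ no2 the other 5 had 0.0516 to 0.206, and without SpFoxp3+ no2 Il6ra passed too and the other 4 had 0.0521 to 0.292.

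Klrd1, which encodes the NK receptor chain CD94, read 7.42 and 8.24 in SpRAFoxp3+ cells, against 8.69 and 9.82 in SpFoxp3+ cells (-1.43 ± 0.24, adjusted p = 0.0232). Of 7 markers tested for CD8 T or NK cells it was the 1 that passed, where 1.12% of all genes tested passed. Nkg7, a granule protein of the same list, read 10.65 and 10.55 with RA, against 11.66 and 11.78 without it, and did not pass (-1.12 ± 0.23, adjusted p = 0.0586), whereas Gzma, granzyme A, overlapped (9.72 and 8.38, against 6.17 and 8.97). The summed level of the 11 markers was 7903 and 9438 with RA, against 9495 and 13826 without it. Granzyme B (Gzmb) was the brightest of them, with 12.23 and 12.76, against 12.38 and 13.05. Cd8b1, Ncr1 and Prf1 did not exceed the array median on any of the 4 arrays. Cd8a read 6.77 and 5.93 with RA, against 6.04 and 5.62 without it. Of the 7 markers tested 3 differences were positive and 4 negative. The part of such cells in the falls of Eomes and Klrd1 was not tested.

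Of 18 S100 proteins, annexins and galectins, 5 fell and 0 rose, where 0.507% of all genes tested fell. The list median was -0.38, against -0.002 over all genes tested. Lgals3, the sugar-binding galectin 3, read 8.69 and 9.49 in SpRAFoxp3+ cells, against 10.78 and 12.13 in SpFoxp3+ cells (-2.37 ± 0.26, 5.16-fold, adjusted p = 0.00277). S100a4, a calcium-binding protein of activated and migrating cells, read 7.15 and 7.32 with RA, against 9.98 and 9.04 without it (-2.27 ± 0.32, adjusted p = 0.0103). S100a6 and S100a10 fell with differences of -0.96 ± 0.14 and -0.83 ± 0.16. Anxa2, the annexin that binds S100a10, read 9.93 and 11.22 with RA, against 11.12 and 12.12 without it (-1.04 ± 0.20, adjusted p = 0.045). Its groups overlapped, since the RA array no2 lay above the control array no1, although both pairs moved by about 1 unit. None of the 5 passed without the block (adjusted p = 0.115 to 1) or without SpRAFoxp3+ no1 (0.0539 to 0.244). Without SpRAFoxp3+ no2 only Lgals3 passed (0.0516 to 0.106 for the others), and S100a6, S100a10 and Anxa2 failed also without SpFoxp3+ no1 or no2 (0.0591 to 0.358).

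Of the other large falls, Endou, an endoribonuclease, read 5.64 and 6.05 in SpRAFoxp3+ cells, against 8.47 and 9.82 in SpFoxp3+ cells (-3.30 ± 0.39, 9.83-fold, adjusted p = 0.00428), while its other probe set moved by -0.88. Tmcc3, a membrane protein of the endoplasmic reticulum, read 5.11 and 6.37 with RA, against 7.65 and 7.99 without it (-2.08 ± 0.22, adjusted p = 0.00222). The predicted gene Gm17767 fell by 2.57 ± 0.37. All 3 lay near the array median with RA. Tmcc3 passed with each of the 4 arrays left out. Endou and Gm17767 did not without either SpRAFoxp3+ array, nor Gm17767 without SpFoxp3+ no2 (adjusted p = 0.0546 to 0.144), and none of the 3 passed without the block (adjusted p = 0.121 to 0.766).

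Of 33 genes tested of the regulatory T cell signature, Ebi3 rose and Prdm1 fell, where 1.12% of all genes tested changed. Of the 33 differences 21 were negative, and the list median was -0.164, against -0.002 over all genes tested, with -0.336 in pair no1 and 0.039 in pair no2. Il2ra, the IL-2 receptor alpha chain, read 11.18 and 11.20 in SpRAFoxp3+ cells, against 11.52 and 10.68 in SpFoxp3+ cells. Ctla4, an inhibitory receptor, read 12.16 and 12.24 with RA, against 12.55 and 12.32 without it, and Ikzf2, the factor Helios, read 11.40 and 11.41, against 11.94 and 11.15. The groups overlapped for Il2ra and Ikzf2, and the differences of the 3 genes were 0.09 ± 0.41, -0.24 ± 0.21 and -0.14 ± 0.18. Nrp1, a surface receptor of thymus-derived regulatory T cells, read 11.37 and 10.52 with RA, against 10.43 and 7.25 without it, with a difference of 2.10 ± 0.63 (adjusted p = 0.193) that did not pass. Among TGF-beta pathway genes, Tgfbr1 differed by 0.66 ± 0.19, Tgfbr2 by -0.09 ± 0.21, Smad3 by 0.39 ± 0.12, Smad7 by -0.51 ± 0.15 and Tgfb1 by 0.25 ± 0.17, and none of these passed. Il7r, the receptor for IL-7, differed by 0.44 ± 0.13 and did not pass either. Il2, Il21 and Timd2 were below the filter.

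Lists for growth and metabolism held 0 changed genes in limma, with or without the block. These were cell cycle and DNA replication (39 genes, median -0.038), glycolysis and hypoxia (27, -0.086), sterol and fatty acid synthesis (25, -0.065), the amino acid response (20, 0.008), metallothioneins and zinc transport (10, 0.081), and common-chain cytokine receptors, STATs and SOCS (25, -0.092). Over all genes tested 1.12% passed with the block and 0.101% without it. Lists of this size would hold few calls or none at that share, so 0 says little about their members. Over all genes tested 1454 had an unadjusted p under 0.05 in limma with the block. The metallothioneins Mt1 and Mt2 differed by -1.37 ± 0.33 and -1.76 ± 0.41, and their groups overlapped, with both no2 arrays about 2 units above the no1 arrays. Markers of T cells (12 genes), B cells (5), dendritic cells (9) and macrophages (4) held 0 changed genes as well, with the same limit.

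**Figure D3:**
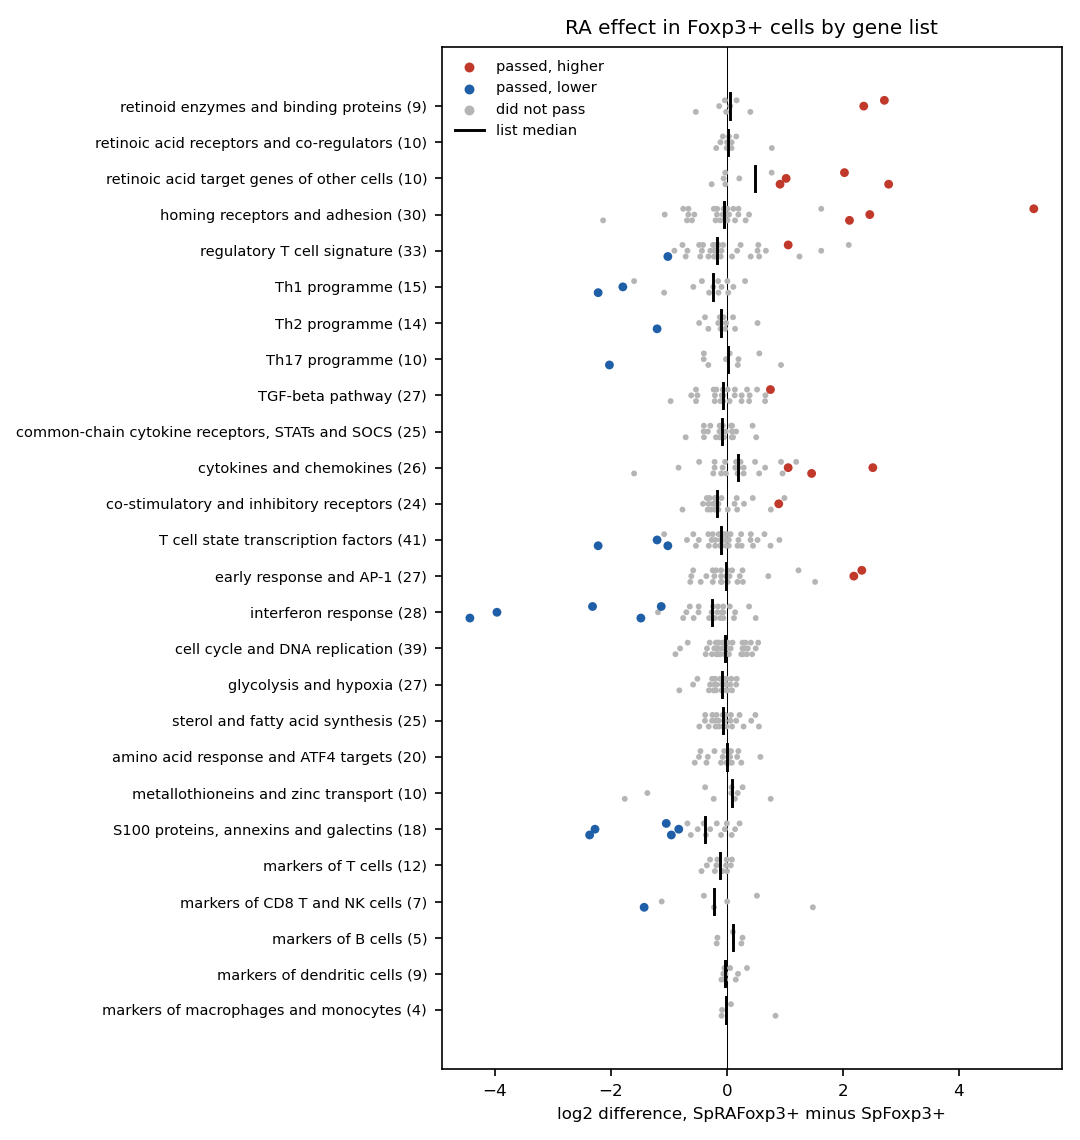
Log2 difference between SpRAFoxp3+ and SpFoxp3+ for each tested member of 26 gene lists, with the number tested in parentheses. Red and blue points passed upward and downward, gray points did not pass, and the black bar is the list median. Interferon response genes and the S100, annexin and galectin list each hold 5 blue points, and Ccr9 is the far right point of the homing list.

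The Foxp3- cells sorted from cultures of the same kinds were set beside the Foxp3+ cells to ask whether the RA effect differed between the fractions. No gene passed for the difference of the 2 effects in limma, and 231 of 11846 had an unadjusted p under 0.05 (0 and 55 without the block). The test rests on a single SpRAFoxp3- array, numbered no2, whose spread was taken from the other groups. Its Ccr9 value was 8.46, against 4.31 and 4.03 in SpFoxp3- cells, an RA effect of 4.69 ± 0.51. Ifitm1 read 7.78 in SpRAFoxp3- cells, against 11.69 and 11.64 in SpFoxp3- cells (-3.78 ± 0.30). Cyp26b1 read 8.09, against 6.33 and 6.48 (1.69 ± 0.18), and Gda 8.01, against 6.32 and 6.48 (1.57 ± 0.19), both smaller in Foxp3- cells than in Foxp3+ cells by over 1 unit. These differences of effect did not pass.

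RA in memory CD4 cells gave a measure that shares no array with the Foxp3+ comparison, though the time, the stimulus and the starting cells also differ. RA changed 596 of 12062 genes there (4.94%). Of the 133 genes changed in Foxp3+ cells 121 were measured in memory cells too, 105 of them with the same sign (against 54.9% of the 11432 genes tested in both). Among the rises 33 of 66 also rose in memory cells, where 2.6% of all genes tested rose, and among the falls 13 of 55 also fell, where 2.34% of all fell. Another 2 changed in opposite directions. For 161 genes (1.41%) the RA effect differed between Foxp3+ and memory cells in the joint fit, 65 higher (0.569%) and 96 lower (0.84%) in Foxp3+ cells, while 6 passed without the block. The count fell to 70 without SpRAFoxp3+ no1, to 103 without SpRAFoxp3+ no2, to 74 without SpFoxp3+ no2, and to 101 to 104 without no1 or no2 of MemoryRA or Memory.

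Cyp26b1, Asb2, Bex1 and Gda rose more in Foxp3+ cells. Bex1 differed most, with an RA effect of 3.48 ± 0.25 in Foxp3+ cells, against -0.77 ± 0.14 in memory cells (difference 4.25 ± 0.31, adjusted p = 2.25e-05). Gda moved by 3.27 ± 0.15 in Foxp3+ cells, against 0.10 ± 0.13 in memory cells, where it read 6.65, 6.71 and 6.39 with RA and 6.47, 6.64 and 6.35 without it. Itga4 rose less in Foxp3+ cells than in memory cells, by 2.11 ± 0.26, against 4.06 ± 0.14 (difference -1.95 ± 0.31, adjusted p = 0.0086). In SpFoxp3+ cells without RA Itga4 was already at 9.29 and 8.44, while memory cells without RA read 7.56, 7.43 and 7.19. The same direction of difference held for Fam102b (1.02 ± 0.15 in Foxp3+ cells, against 2.83 ± 0.13 in memory cells) and Gfi1 (0.91 ± 0.22, against 3.06 ± 0.13). The RA effect on Ifitm1 was -4.43 ± 0.23 in Foxp3+ cells, against -0.62 ± 0.18 in memory cells, which read 6.83, 6.91 and 6.52 with RA and 7.96, 7.45 and 6.72 without it. The difference was negative and passed also for Eomes, Klrd1, Endou and Iigp1. Among 19 alternatives it passed in 19 for Bex1, Ifitm1 and Gfi1, in 18 for Eomes, Klrd1, Fam102b, Cyp26b1, Il4 and Il10, in 17 for Itga4, in 16 for Asb2, in 11 for Endou and in 7 for Iigp1, and for Gda in all 18 that could be run. The 19 alternatives are not all distinct, since leaving out MemoryRA or Memory of the same number gives the same result. For Il10 and Il4 the effects in Foxp3+ cells were -0.48 ± 0.29 and -0.03 ± 0.18, neither passing, against falls in memory cells with differences of -2.84 ± 0.13 and -1.99 ± 0.15. In Foxp3+ cells Il4 read 6.0 and 5.4 with RA and 5.90 and 5.55 without it, near the array median on all 4 arrays. Il10 read 6.42 and 5.91 with RA and 6.42 and 6.86 without it, while memory cells without RA read 10.09, 10.31 and 10.54. Such low levels without RA limit the fall that could be measured in Foxp3+ cells. The same limit held in memory cells for Ifitm1, Eomes and Endou, which read lower there without RA than in SpFoxp3+ cells. Eomes read 6.82, 6.90 and 5.88 in memory cells without RA, against 9.74 and 9.56 in SpFoxp3+ cells. Endou read 7.04, 6.83 and 6.86, against 8.47 and 9.82, whereas Iigp1 read higher in memory cells. Ccr9, Lztfl1 and Dhrs3 rose in both populations, and their differences of 1.96 ± 0.56, -0.33 ± 0.18 and -0.27 ± 0.41 did not pass.

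**Figure D4:**
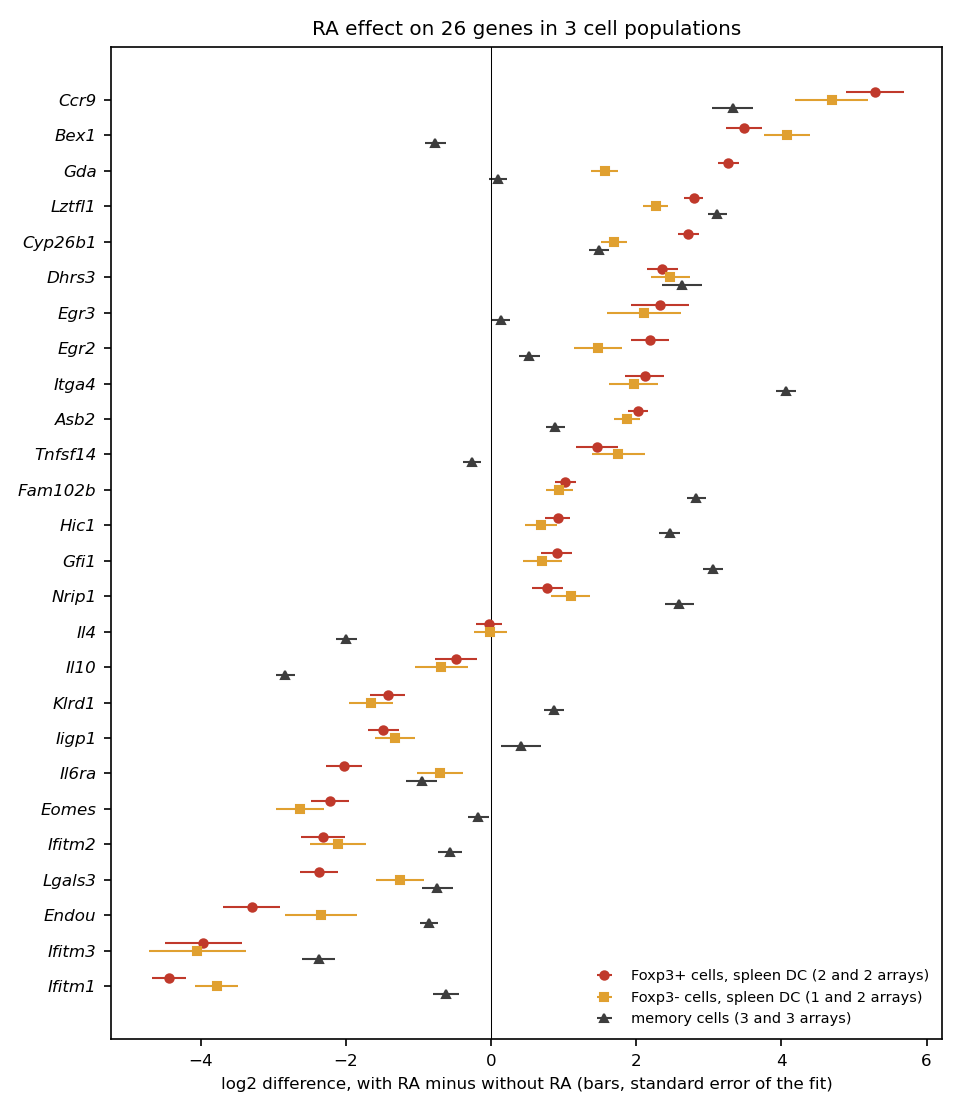
RA effect (log2 difference with RA minus without RA, bars give the standard error) on 26 genes in Foxp3+ cells, in Foxp3- cells and in memory cells. The Foxp3+ and Foxp3- points lie near each other for most genes, while the memory points stand apart for Bex1, Gda, Itga4, Gfi1, Il10, Klrd1 and Ifitm1.

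Foxp3+ cells of cultures with lamina propria DC and no added RA differed from SpFoxp3+ cells in some of the genes named above and not in others. That contrast shares the SpFoxp3+ arrays, so its values are given side by side and no overlap was computed. Over all genes LP-DC changed 215 of 11846 (1.81%), 139 upward (1.17%) and 76 downward (0.642%). Itga4 read 10.55 and 10.62 in LPFoxp3+ cells, higher than in SpFoxp3+ cells by 1.72 ± 0.26 (adjusted p = 0.0266), beside 2.11 ± 0.26 for RA. Egr2 differed by 1.84 ± 0.26 with LP-DC and 2.19 ± 0.26 with RA, Lgals3 by -2.43 ± 0.26 and -2.37 ± 0.26, and Maf by -1.83 ± 0.22 and -1.20 ± 0.22, and all of these passed. Ccr9 read 3.99 and 3.79 in LPFoxp3+ cells and Cyp26b1 6.43 and 6.54, so neither was above its level in SpFoxp3+ cells (-0.15 ± 0.40 and 0.04 ± 0.14). Ifitm1 read 11.27 and 10.57 (-0.75 ± 0.23, not passing). Gbp2 and Iigp1, which fell with RA, were higher with LP-DC, by 0.92 ± 0.16 (adjusted p = 0.0365) and 1.03 ± 0.22 (adjusted p = 0.0499). Gbp2 read 9.40 and 10.81 in LPFoxp3+ cells, against 8.77 and 9.60 in SpFoxp3+ cells, so its groups overlapped. Iigp1 read 9.41 and 10.38, against 8.87 and 8.87. The LP-DC contrast was fitted with the block, and the alternatives were not run for it.

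**Figure D5:**
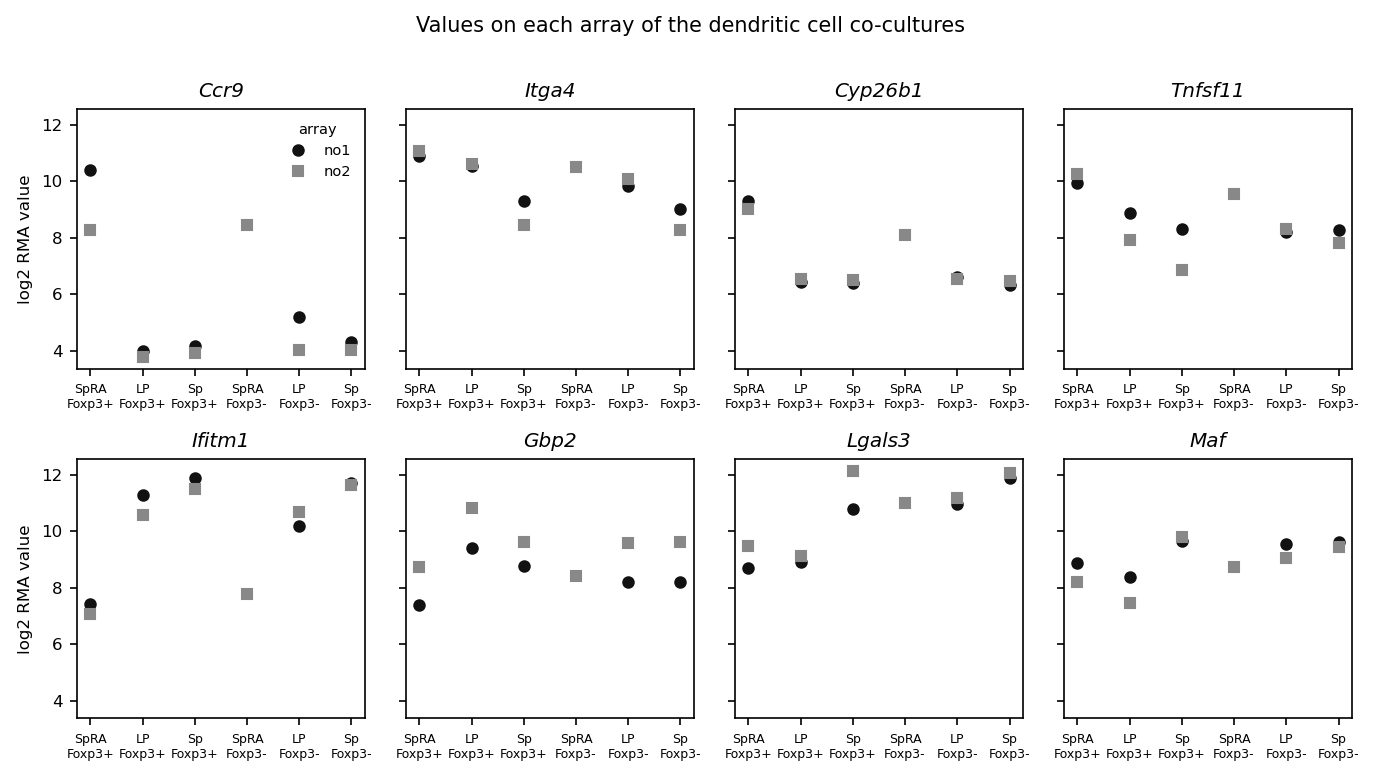
Log2 RMA value of 8 genes on every array of the DC co-cultures, with circles for arrays no1 and squares for no2. Ccr9, Cyp26b1 and Ifitm1 set the 3 RA arrays apart from all others, while Itga4, Lgals3 and Maf in LPFoxp3+ cells lie near their level in SpRAFoxp3+ cells.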

How the data were processed

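The deposited values are RMA intensities on a linear scale, made by the authors in GenePattern from scanned M430v2 arrays after 2 rounds of RNA amplification, per the labels' protocols; no source used here gives the RMA version. Probe sets (45101) were named through GEO's platform annotation, with 34958 naming 1 gene, 932 several and 9211 none, and symbols were updated by gene ID against RefSeq (18032 of 18194 genes matched). The values were taken as log2, and each gene by its brightest probe set, those ending in _x_at last. Genes were tested where 2 arrays or more exceeded their median, 11846 in the fit of the 11 co-culture arrays. A gene high in a single group could thus be tested through that group alone.

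Differences were tested with limma 3.58.1 in R 4.3.3, with group and array number as terms and p-values adjusted by Benjamini and Hochberg over every gene in the fit, and passed at an adjusted p of 0.05. The array number was used as a block because the comparison was defined with same-numbered arrays as pairs. The scan names in the labels also form a separate series for each number. Residuals of same-numbered arrays correlated in all 10 pairs of co-culture groups (r = 0.446 to 0.752). The difference from memory cells came from a joint fit of all 17 arrays. Alternatives were no block, quantile normalization, median centring, no filter or a stricter one (60th percentile), trended and robust priors, an offset of 32 before log2, averaging a gene's probe sets, all 17 arrays, the 4 arrays alone, and each array left out. The scripts were tested on simulated data. With 2 arrays a group, the number of arrays limits the precision.

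Named genes are the 12 largest rises and 12 largest falls that passed with both pairs moving the same way and groups not overlapping, up to 5 passing members of each of 27 gene lists, 38 genes of interest whatever their result, and for tests of a difference the 5 largest each way. The comparison, the genes and the lists were chosen with earlier results of these data known. Promoter windows came from a RefSeq table (GRCm38.p6) and were searched with Python 3.11.15. No other tissue or fraction was compared for its own sake.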

Additional observations from a re-analysis of the deposited data

Results flagged for a closer look

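The RA effect differed between Foxp3+ and memory CD4 cells, by the test of the difference in the joint fit, for the genes below. Each value is the effect in Foxp3+ cells minus the effect in memory cells (log2). Time, stimulus and starting cells differ between the experiments, and their part was not tested. The difference passed in all 19 alternatives for Bex1, Ifitm1 and Gfi1 and in all 18 that could be run for Gda and Jcad. It passed in 7 of 19 for Iigp1, 7 of 18 for Cttn, 7 of 17 for Tnfsf14, 8 of 19 for Egr3 and Gm4951, 10 of 19 for Egr2 and 11 of 19 for Ifitm2 and Endou, and in 15 to 18 of 19 for the other genes. These alternatives are not all distinct, since leaving out MemoryRA or Memory of the same number gives the same result.

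The difference was positive for Bex1 (4.25), Gda (3.17), Armcx4 (2.51), Jcad (2.42), Ndrg1 (2.36), Il10 (2.36), Egr3 (2.19), Il4 (1.96), Tnfsf14 (1.73), Egr2 (1.66), Cttn (1.55), Cyp26b1 (1.23) and Asb2 (1.14). For Il10, Il4, Armcx4, Jcad and Ndrg1 the memory effect was the larger one and negative, with -1.56 for Armcx4, -1.87 for Jcad and -2.57 for Ndrg1. Without RA Il10 and Il4 read lower in Foxp3+ cells than in memory cells, which limits the fall that could be measured there.

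The difference was negative for Ifitm1 (-3.81), Nkg7 (-2.89), Endou (-2.44), Klrd1 (-2.29), Mndal (-2.20), Gfi1 (-2.15), Eomes (-2.05), Gm4951 (-2.01), Itga4 (-1.95), Iigp1 (-1.90), Nrip1 (-1.82), Fam102b (-1.81), Ifitm2 (-1.75), Tmcc3 (-1.62) and Hic1 (-1.54). In memory cells RA moved Nkg7 by 1.76 and Mndal by 2.18. Without RA Ifitm1, Ifitm2, Eomes, Endou and Gm4951 read lower in memory cells than in Foxp3+ cells. That limits the fall that could be measured in memory cells, while Iigp1 read higher there.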

How the results depend on the processing

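The count of genes changed by RA in Foxp3+ cells, 133 (73 higher and 60 lower), depended most on the block. Without the replicate block 12 passed (11 higher, 1 lower), and with 1 of the 4 compared arrays left out as well, chosen after seeing the data, 9 did without SpRAFoxp3+ no1, 8 without SpRAFoxp3+ no2, 12 without SpFoxp3+ no1 and 6 without SpFoxp3+ no2 (8, 6, 10 and 5 of them higher, 1, 2, 2 and 1 lower). Leaving out 1 of the 11 co-culture arrays with the block kept gave 48 to 161 (23 to 89 higher, 16 to 72 lower), and 48 to 129 where it was 1 of the 4 compared, when an arm held 1 array that was assumed to vary like the other groups. The 4 arrays alone gave 450 (236 higher, 214 lower), with 1 residual degree of freedom. The prior of that fit had infinite degrees of freedom, so every gene was given the same variance. Its calls therefore follow the size of the difference. Quantile normalization gave 91 lower, all 17 arrays 92 lower, and the mean of all probe sets 47 higher. Rises were 54.9% of calls, 91.7% without the block and 73.8% without SpRAFoxp3+ no1. The difference from Foxp3- cells held 0 calls in the alternatives run for it, which leave out the fits of all 17 arrays and of the 4 arrays alone. The 161 differences from memory cells (65 higher, 96 lower) became 6 without the replicate block (3 higher, 3 lower) and 70 to 138 with 1 array left out (23 to 69 higher, 33 to 77 lower).

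Of the named genes' values, 1239 kept direction and side of the threshold, 136 no longer passed, 15 newly passed and 16 changed sign. All 16 belong to genes that did not pass. Some alternatives repeat the same fit, so these values are not all separate. Il17a was 0.0070 after quantile normalization and 0.0031 after median centring. With 1 array left out the values of those whose sign turned were -0.36 to 0.14 for Gata3, -0.43 to 0.15 for Ikzf2, -1.02 to 0.066 for Il10, -0.18 to 0.15 for Il17a, -0.63 to 0.81 for Il2ra, -0.18 to 0.12 for Il4, -0.28 to 0.20 for Itgb7, -0.20 to 0.53 for Rarb and -0.47 to 0.30 for Tgfbr2. The causes were not tested. Values under the array median, as for Ccr9 without RA, limit the size of a fold.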

Other observations

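Further genes that passed in SpRAFoxp3+ against SpFoxp3+ cells were chosen after their values were seen. The neighbouring genes Tmem176b and Tmem176a, which encode membrane proteins of leukocytes, rose together. Tmem176b read 11.43 and 10.79 in SpRAFoxp3+ cells, against 9.42 and 8.85 in SpFoxp3+ cells (1.98 ± 0.18, limma adjusted p = 0.00101), and Tmem176a 10.54 and 10.18, against 8.80 and 8.23 (1.84 ± 0.19, adjusted p = 0.00166). Some enzymes that build glycans were among the 133, picked one by one and not from a list whose members were counted. Csgalnact1 of chondroitin sulfate synthesis rose by 2.18 ± 0.23, the sialyltransferases St6galnac3 and St3gal2 by 1.13 ± 0.19 and 1.05 ± 0.16, and Mgat4a of N-glycan branching by 0.76 ± 0.13, while B3gnt5 of glycolipid synthesis fell by 1.44 ± 0.24.

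Single genes among the falls were H2-D1, Nlrc5 and Gbp6. H2-D1, an MHC class I heavy chain, read 9.98 and 10.64 with RA, against 10.90 and 11.37 without it (-0.82 ± 0.13, adjusted p = 0.0163). Nlrc5, the activator of class I genes, read 8.66 and 8.91 with RA, against 9.52 and 9.62 without it (-0.79 ± 0.15, adjusted p = 0.0428). The guanylate-binding protein gene Gbp6 fell by 1.12 ± 0.21. None of these genes was among the 12 that passed without the block.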
